A study of Mus musculus with 13 samples.

Results

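Sites of H3K27me3 that were called in mouse embryonic stem cells only when tamoxifen had been given to ablate Setdb1 were described by their position, spacing and distance to other marked chromatin. They were 685 of 31429 regions on chromosomes 1 to 19, or 2.18%, and are called tamoxifen-only regions here. Touching or overlapping peaks of 4 H3K27me3 lists were merged into regions, and a tamoxifen-only region held a peak of both tamoxifen libraries and of neither untreated library. They were chosen by the presence or absence of a called peak in each list, so their number and their absence from the untreated lists are descriptions and not results. Regions of exactly 2 lists made up 0.277% of the merged regions for both untreated lists, 0.636% for both lists of the peak caller MACS2 2.0.10 (replicates 1), 7.25% for both MACS2 2.1.0 lists (replicates 2), 1.66% for tamoxifen 1 with untreated 2 and 0.197% for tamoxifen 2 with untreated 1. Treated cells had received 2.5 µM tamoxifen (2 H3K27me3 libraries), and the untreated cells had received none (2 H3K27me3 and 4 H3K9me3 libraries). The labels' protocol names DMSO, the solvent, as the control treatment. All of these cells, untreated ones included, were J1 embryonic stem cells with an inducible knockout of Setdb1, grown without feeder cells in serum and LIF, and none lacked the inducible allele. H3K9me3 after tamoxifen was not analysed here, and the loss of Setdb1 could not be checked from peak positions. H3K9me3 replicate 4 has "none" as its antibody entry, as have several inputs, and was placed by its title.

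Setdb1 is a histone methyltransferase that adds methyl groups to lysine 9 of histone H3 and is known in embryonic stem cells for silencing retroelements and some genes. H3K27me3 is written by Polycomb repressive complex 2, whose subunit EED binds the mark and so allows it to spread along chromatin from existing domains. New sites of the mark could thus lie beside existing domains or apart from them, and the distances below describe which was seen. Each list holds the chromosome, start and end of its peaks on mouse build mm9, with no height or read count, so depth is unknown. The lists held 15116 and 22265 peaks with tamoxifen and 7041 and 17094 in untreated cells, and longer lists give more regions whatever the treatment. Median peak widths on the autosomes were 731 and 725 bp with tamoxifen, and 2526 and 783 bp in untreated replicates 1 and 2. Untreated replicate 1 thus had the fewest and the widest peaks. Per the submitters' processing notes, the first replicate of every group was called with MACS2 2.0.10 and the rest with MACS2 2.1.0. The labels do not state whether replicates were grown as separate cultures, so a p-value here speaks of the spread among these libraries, which may be technical.

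Tamoxifen-only regions were small and simple in build. Their width had a median of 1034 bp and a range of 204 to 4545 bp, and 60 of them were wider than 2 kb. In 672 of the 685, or 98.1%, each tamoxifen list contributed 1 peak. Tamoxifen replicate 1 covered a median of 56.4% of a region and tamoxifen replicate 2 a median of 79.9%, and 434 regions (63.4%) were wider in replicate 2. The stretch under peaks of both replicates had a median of 264 bp, and in 18 regions it reached 1 kb. In 1 region the peaks of both lists touched without sharing a base. Regions of exactly 2 lists were narrow in general, with medians of 882 to 1344 bp in the other 5 pairs of lists.

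The absence of an untreated peak was often a matter of a short gap. Of the 685 regions, 178 (26%) lay within 1 kb of a peak of at least 1 untreated list, and the median gap was 4.49 kb. The same distance from the lists that lacked them was found for 14.4% to 33.9% of regions in the other 5 pairs, so closeness of this kind was not particular to the tamoxifen lists. Just inside the rule stood a region on chromosome 1 from 163099719 to 163100553, which lay 5 bp from an untreated peak. Just outside it stood a region on chromosome 2 from 10217614 to 10221697, held by both tamoxifen lists, in which untreated replicate 2 covered 221 of 4084 bp. The number of tamoxifen-only regions depended on the lists used. It was 11779 without tamoxifen replicate 1, 4914 without tamoxifen replicate 2, 2046 without untreated replicate 2 and 878 without untreated replicate 1, and by construction it rises when a list is removed. Where a tamoxifen list is left out, here and below, the term means regions of the other tamoxifen list and of neither untreated list.

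Sites with the most bases under peaks of both tamoxifen lists were spread over the genome. The 10 highest lay on 8 chromosomes, 9 of them away from chromosome 8. The first, on chromosome 7 from 150686235 to 150689027, measured 2793 bp, of which tamoxifen replicates 1 and 2 covered 2024 and 2628 bp and the untreated lists 0 bp. It lay 32.9 kb from the nearest region held by all 4 lists and 6.24 kb from the nearest peak of untreated replicate 2. The second, on chromosome 13 from 60581740 to 60584344, was covered over 2557 and 1901 bp by tamoxifen replicates 1 and 2 and over 0 bp by the untreated lists. This site stood 303 kb from a region of all 4 lists, and 212 kb from the nearest H3K27me3 peak of either untreated library. Peaks of H3K9me3 replicates 3 and 4 lay 0.241 and 1.38 kb from it, and those of replicates 1 and 2 194 and 205 kb.

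The third, on chromosome 14 from 69909315 to 69911497, had 2070 and 1843 bp in tamoxifen replicates 1 and 2 and lay 6.35 kb from a region of all 4 lists. On chromosome 17 a site from 83721454 to 83723757 had 1641 and 2260 bp and lay 103 kb away from one. A pair of sites on chromosome 10 lay farther out. The site from 18310847 to 18312806 stood 149 kb from a region of all 4 lists, and the site from 85060791 to 85063182 stood 208 kb from one. On chromosome 15 the site from 103367127 to 103371671 was the widest tamoxifen-only region, 27.1 kb from a region of all 4 lists. The last 3 were chr5:23892360-23894814 at 35.4 kb, chr8:26560772-26564827 at 5.77 kb and chr7:19917346-19919253 at 24.8 kb. The site on chromosome 8 was the 1 among the 10 that overlapped an H3K9me3 peak, in replicates 3 and 4. Thus 2 of the 10 were within 10 kb of a region of all 4 lists and 4 were more than 100 kb from one.

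Most tamoxifen-only regions did not adjoin an H3K27me3 domain held by all 4 lists. Established domains are taken here as the 4768 regions held by all 4 lists, which had a median width of 4658.5 bp. A tamoxifen-only region lay a median of 44.0 kb from the nearest of them (95% binomial interval of the median 38.4 to 52.9 kb), with quartiles of 6.76 and 141.7 kb. The median was 70.7 kb with peaks up to 1 kb apart merged, 69.7 kb with equal numbers of widest peaks and 148 kb with at least 50% cover by each holding list. In the other direction, it was 21.7 kb with regions of at least 3 lists as domains and 29.0 kb without untreated replicate 1. Of the 685, 69 (10.1%) lay within 1 kb, 196 (28.6%, Clopper-Pearson 95% interval 25.3% to 32.2%) within 10 kb and 458 (66.9%) within 100 kb. The share within 10 kb was 17.9%, 16.0% and 13.5% under the 3 settings named first. It was 38.0% with regions of at least 3 lists as domains and 36.8% without untreated replicate 1. Over all regions other than those of all 4 lists, 25.6% lay within 10 kb and 64.1% within 100 kb. Within 10 kb of at least 1 peak of the untreated lists lay 418 of the 685 (61.0%). Every domain holds peaks of both untreated lists, so a higher share than for domains was nearly bound to be found. In the other 5 pairs, 53.9% to 73.6% lay within 10 kb of a peak of the lists that lacked them. Intervals over regions cover counting error alone. A peak that touches a domain is merged with it, so growth at a border without a gap cannot appear among these sites.

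**Figure D1:**
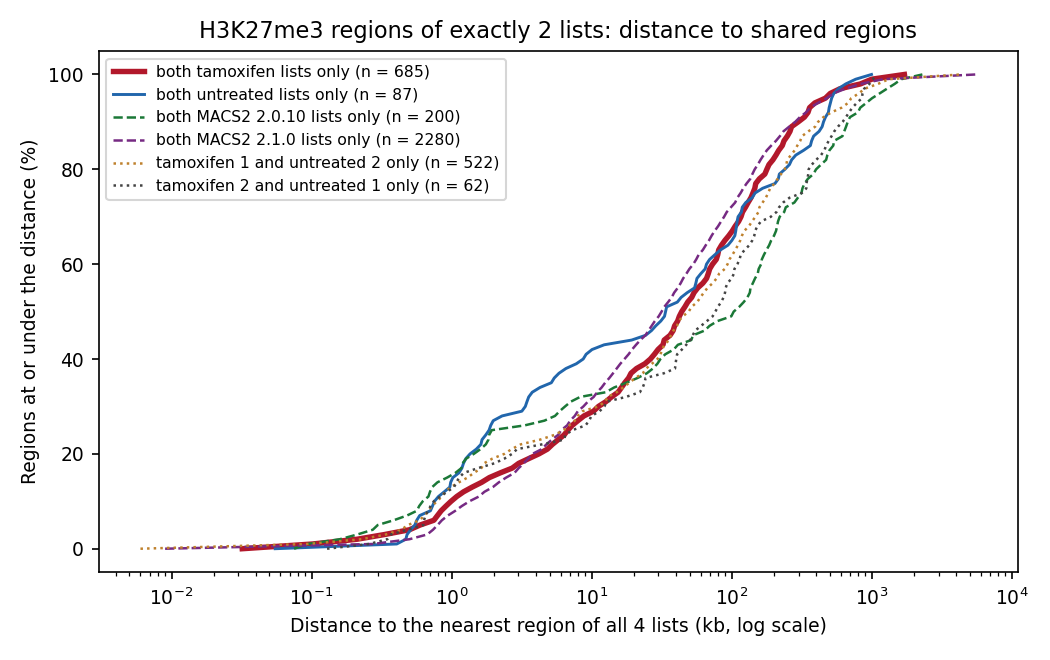
Cumulative share of regions (y axis, percent) against the distance to the nearest region held by all 4 lists (x axis, kb, log scale), for regions held by exactly 2 of the 4 H3K27me3 lists. For tamoxifen-only regions (thick red line) 28.6% lie within 10 kb, below the 29.0% to 42.5% of the other 5 pairs, and 52.4% lie within 50 kb, inside their range of 43.5% to 59.1%.

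Tamoxifen-only regions were no nearer to established domains than regions of other pairs of lists by the share within 10 kb. Within 10 kb of a domain were 28.6% of tamoxifen-only regions, against 42.5% of the 87 regions of both untreated lists only. The share was 32.5% for the 200 regions of both MACS2 2.0.10 lists, 31.4% for the 2280 of both MACS2 2.1.0 lists, 29.9% for the 522 of tamoxifen 1 with untreated 2 and 29.0% for the 62 of tamoxifen 2 with untreated 1. All 5 were above the tamoxifen-only share. Each of their 95% intervals overlapped its interval, by the least for both untreated lists, at 32.0% to 53.6%. Against the 3151 regions of these pairs together the difference was -2.90 percentage points, with a 95% interval of -6.65 to 0.852. Most of this pool, 2280 regions, came from both MACS2 2.1.0 lists. The intervals here take regions as independent and cover counting error alone, so their overlap is no test of the classes. The order depended on the distance used. Within 100 kb lay 66.9% of tamoxifen-only regions and 50.0% to 72.2% of the other pairs, of which 1 was higher. These classes share libraries, so they are set side by side without a test.

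The median distance of 44.0 kb lay inside the range of 31.6 to 103 kb of the other pairs. It was 29.0 kb when untreated replicate 1 was left out and 38.8 to 57.6 kb when 1 of the other 3 libraries was. Domains within 10 kb of a tamoxifen-only region were 188 in number, and the nearest domain had a median width of 4832 bp, close to the 4658.5 bp over all domains. Domains within 50 kb on both sides flanked 81 tamoxifen-only regions (11.8%), against 5.50% to 15.7% in the other pairs. A gap between close domains was thus the place of a minority of these sites.

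The nearest and the farthest sites showed the extremes. On chromosome 8 a region from 119061082 to 119063559 stood 32 bp from a domain of 2018 bp. The next 4 stood 34 to 58 bp from a domain, at chr16:33687044-33687725, chr7:139802246-139803432, chr8:74083914-74085115 and chr17:83609888-83610363. At the other end, a region on chromosome 13 from 26860880 to 26861685 had no domain within 1711 kb and no peak of untreated replicates 1 or 2 within 1496 and 1574 kb. On chromosome 2 a region from 3034124 to 3035318 lay 1284 kb from a domain but 1.34 kb from a peak of untreated replicate 1. The other 3 of the 5 farthest were chr1:20467015-20468103 at 1233 kb, chr6:134932247-134934155 at 1185 kb and chr17:64950379-64952180 at 1168 kb. In all, 7 of the 685 lay over 1 Mb from a domain.

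Regions found in a single list, none of them tamoxifen-only, gave a measure of placement for each library. They come from the same merged lists and are likewise defined by presence or absence in each list, so the measure is not independent. Those lying within 10 kb of a domain made up 26.2% and 22.0% in tamoxifen replicates 1 and 2, against 29.8% and 27.2% in untreated replicates 1 and 2. Both tamoxifen libraries lay below both untreated ones. The means were 24.1% ± 2.99 and 28.5% ± 1.87 (SD, n = 2 each), a difference of -4.36 percentage points and the exact permutation test (two-sided) gave p = 0.33, the lowest value this number of libraries can reach. Within the MACS2 versions the differences were -3.57 points for 2.0.10 and -5.15 for 2.1.0. The difference was -7.28 points without tamoxifen replicate 1 and -2.55 without tamoxifen replicate 2. The lists contributed unequal numbers of such regions, 3917 and 11005 with tamoxifen against 322 and 5668 untreated. The list with the most had the lowest share, and the list with the fewest had the highest.

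Most tamoxifen-only regions stood alone, and a minority formed runs. With regions at most 100 kb apart joined into a run, 525 stood alone and 160 (23.4%, 95% interval 20.2% to 26.7%) fell into 66 runs. Of these runs 49 held 2 regions and 17 held 3 to 6. The share with a neighbour of the same class depends on how many regions the class has, from 2.30% among the 87 regions of both untreated lists to 60.6% among the 2280 of both MACS2 2.1.0 lists. Among the 522 regions of tamoxifen 1 with untreated 2, the class nearest in size, it was 14.4%. Leaving out a library changes the number of regions too, and the share was 85.2% without tamoxifen replicate 1, 60.0% without tamoxifen replicate 2 and 47.8% without untreated replicate 2. The shares without a tamoxifen replicate are for regions of the remaining tamoxifen list and of neither untreated list.

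The run with the most regions lay in the distal part of chromosome 7, a part of the mouse genome known for clusters of imprinted genes. No annotation of mm9 was used here, so no gene is assigned to it. It held 6 tamoxifen-only regions between 150542596 and 150689027, over 146 kb, the last being the site with the most bases under both tamoxifen lists. The first, from 150542596 to 150544423, was covered over 1828 and 874 bp by tamoxifen replicates 1 and 2. Of the next 4, from 150566231 to 150586291, each measured 1022 to 1448 bp. This stretch also held 2 domains and 33 regions of other classes. Peaks in it numbered 28 and 29 in tamoxifen replicates 1 and 2, against 6 and 27 in untreated replicates 1 and 2. Untreated replicate 2 thus had nearly as many peaks there as either tamoxifen library, and none in the 6 tamoxifen-only regions. No H3K9me3 library had a peak in this stretch.

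Runs of 4 or more regions numbered 8, of which 6 were on chromosome 8. Of the 6 runs with 4 regions, the 3 with the shortest span are named here, and all 3 lay on chromosome 8. A run from 37165785 to 37230409 held 4 tamoxifen-only regions over 64.6 kb, with 4 and 5 peaks in tamoxifen replicates 1 and 2 and 0 in each untreated list. Its first region lay 4.62 kb from a domain and its last 68.0 kb from the same domain. The peaks of both tamoxifen lists shared 9, 265, 111 and 69 bp in these 4 regions. In the first of them tamoxifen replicates 1 and 2 covered 437 and 880 bp, so the peaks lay side by side. In the second, 265 of the 276 bp of tamoxifen replicate 1 lay inside the peak of replicate 2. The run with the most regions on chromosome 8 held 5 regions from 123714853 to 123825061. It had 9 and 18 peaks in tamoxifen replicates 1 and 2, against 1 and 7 in untreated replicates 1 and 2. The other two of these 3 lay from 123225636 to 123341040 and from 106439255 to 106587097, with 4 regions each.

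**Figure D2:**
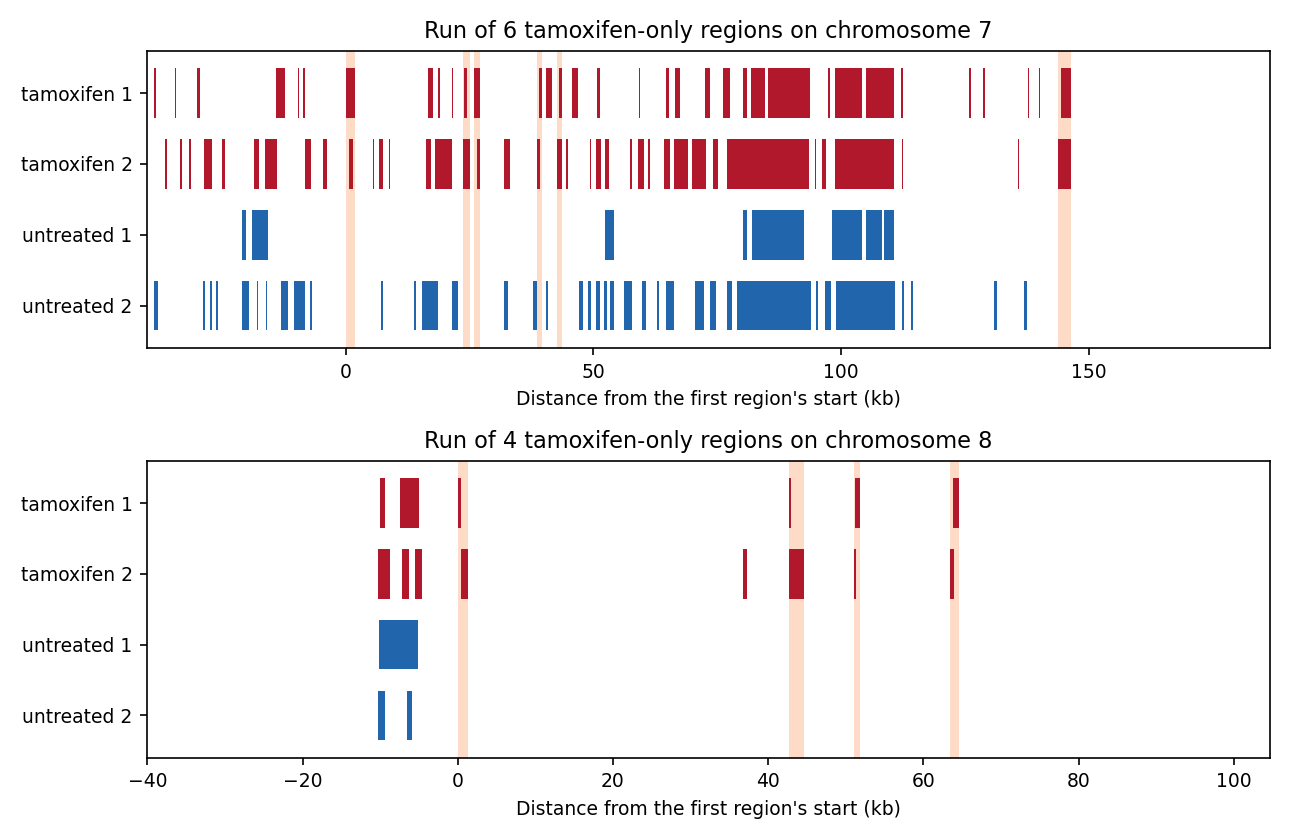
Peaks of the 4 H3K27me3 lists (rows) along a run of 6 tamoxifen-only regions on chromosome 7 and a run of 4 on chromosome 8, by distance in kb from the start of the first region (x axis). Pale bands mark the tamoxifen-only regions, and peaks under 0.3 kb are drawn 0.3 kb wide. On chromosome 7 the bands lie among many peaks of untreated replicate 2, while on chromosome 8 the untreated lists have no peak in the run.

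Chromosome 8 carried the largest number of tamoxifen-only regions. It held 127 of the 685, or 18.5% (95% interval 15.7% to 21.7%), and 7.24% of the domains. In the other 5 pairs of lists the share on chromosome 8 was 8.05% to 14.0%, and it was 11.3% over the 3151 regions of these pairs. Regions of tamoxifen replicate 1 alone had nearly the same share as tamoxifen-only regions, 18.4%. Regions of tamoxifen replicate 2, untreated replicate 1 or untreated replicate 2 alone had 11.7%, 14.6% and 9.93%. For every 100 domains there were 36.8 tamoxifen-only regions on chromosome 8, against 9.12 to 16.0 on the other 18 chromosomes. As a share of all merged regions they made up 3.48% on chromosome 8 and 2.01% elsewhere. Chromosome 11 came second by number, with 57 regions, and chromosome 16 had the fewest, with 19.

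**Figure D3:**
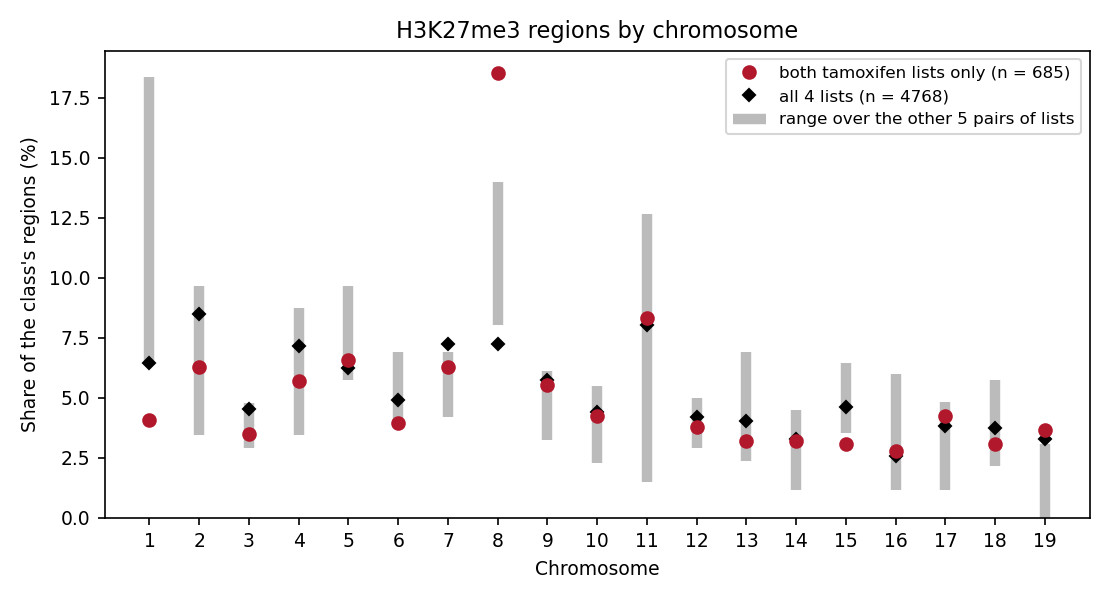
Share of the regions of a class on each chromosome (y axis, percent), for tamoxifen-only regions (red circles), regions of all 4 lists (black diamonds) and the range over the other 5 pairs of lists (grey bars). On chromosome 8 the tamoxifen-only share of 18.5% lies above the grey bar, which ends at 14.0%, and above the 7.24% of regions of all 4 lists.

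Counted per 100 domains, the excess ran along the whole of chromosome 8, and it did not come from a single run. In bins of 20 Mb, tamoxifen-only regions per 100 domains ranged from 18.75 between 60 and 80 Mb to 58.8 between 120 and 140 Mb. By this measure every bin was above the highest other chromosome, taken whole. Domains are a low base on chromosome 8, which held 7.24% of them and 11.3% of the regions of the other pairs. Set beside regions of the other pairs of lists, the bins were uneven. There were 9 tamoxifen-only regions to 41 of the other pairs between 60 and 80 Mb, and 20 to 36 between 20 and 40 Mb. Over all autosomes there were 685 to 3151, a ratio close to that between 60 and 80 Mb. The 127 regions had a median width of 1137 bp, against 1011 bp for the 558 on other chromosomes. They lay a median of 38.1 kb from a domain, against 49.6 kb elsewhere. Of the 17 runs of 3 or more regions 11 were on chromosome 8, and without that chromosome 17.9% of tamoxifen-only regions had a neighbour within 100 kb. The share of tamoxifen-only regions on chromosome 8 stayed between 17.2% and 20.6% under other rules for merging, cover, width and chromosomes, against 8.99% to 11.3% in the other pairs. Without untreated replicate 2 it was 13.9% (other pairs 10.1%), and without untreated replicate 1 16.9% (other pairs 10.7%). Leaving out a tamoxifen list turns the class into regions of the other tamoxifen list and of neither untreated list. Such regions had 12.1% on chromosome 8 without tamoxifen replicate 1, and the pairs among the remaining lists 10.7%. Without tamoxifen replicate 2 the values were 17.9% and 11.5%. These set regions of 1 list beside regions of 2.

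On chromosome 8 the tamoxifen libraries had a larger share of all H3K27me3 peaks, which include the peaks of the tamoxifen-only regions. The untreated lists lack those peaks by the rule, so this share is not separate support. Chromosome 8 was singled out because of the tamoxifen-only regions, so the next values carry no test. Of all autosomal peaks, 11.4% and 10.6% were on chromosome 8 in tamoxifen replicates 1 and 2, against 7.95% and 9.39% in untreated replicates 1 and 2. Both tamoxifen lists lay above both untreated lists on 2 of 19 chromosomes (10.5%). Among regions of a single list the shares were 18.4% and 11.7% with tamoxifen, against 14.6% and 9.93% untreated, so the groups overlapped, and within each MACS2 version the tamoxifen library was higher, by 3.76 and 1.76 points. Among peaks of 2 kb or wider they were 7.89% and 8.08%, against 6.98% and 6.94%. The 4 H3K9me3 lists of untreated cells had 6.61% to 6.87% of their peaks there.

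Within established domains the same direction was seen only relative to the other chromosomes. On chromosome 8 itself the mean cover was 72.3% with tamoxifen and 74.5% untreated. Peaks of tamoxifen replicates 1 and 2 covered 69.1% and 75.4% of the bases of domains on chromosome 8, and 65.8% and 74.5% on the other chromosomes. In untreated replicates 1 and 2 the cover was 77.1% and 72.0% on chromosome 8, and 80.7% and 74.8% elsewhere. Cover on chromosome 8 minus that elsewhere was thus 3.38 and 0.904 points in the tamoxifen libraries, against -3.69 and -2.81 in the untreated ones, with no overlap of the groups. Tamoxifen libraries both lay above both untreated ones on 3 of 19 chromosomes (15.8%). The difference between the groups was 5.39 points on chromosome 8, the largest of the 19, and -3.79 to 2.45 on the others. It had the same sign in both MACS2 versions, at 7.07 and 3.71 points. Peak positions hold no measure of how many copies of a chromosome the cells carried, and its part in these values was not tested.

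**Figure D4:**
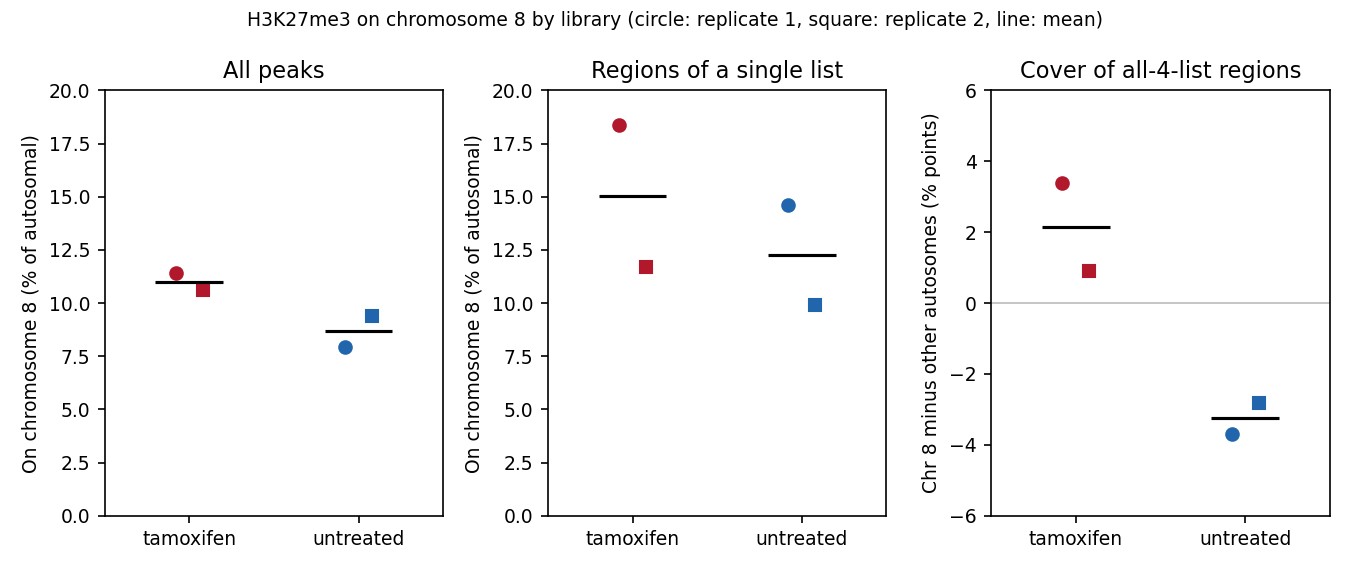
Chromosome 8 in the 4 H3K27me3 libraries, as the share of all autosomal peaks (left, percent), the share of regions found in a single list (middle, percent) and the cover of regions of all 4 lists on chromosome 8 minus that on the other autosomes (right, percentage points). Points are libraries and lines are means of 2. In the right panel the tamoxifen libraries stand at 3.38 and 0.904 and the untreated ones at -3.69 and -2.81.

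H3K9me3, the mark that Setdb1 writes, was mapped in 4 libraries of untreated cells, and the question was whether tamoxifen-only H3K27me3 sites lay at or near it. Few overlapped it. A peak of H3K9me3 replicates 1 to 4 overlapped 2, 3, 21 and 12 of the 685 sites, or 0.292%, 0.438%, 3.07% and 1.75%. Over all 31429 merged H3K27me3 regions the shares were 0.487%, 0.99%, 2.2% and 1.18%. Peaks of any of the 4 libraries overlapped 22 tamoxifen-only sites (3.21%, 95% interval 2.02% to 4.82%), against 2.72% of all merged regions, 3.49% of regions of the other 5 pairs and 5.85% of the wider domains. A larger region meets a peak more easily, and the domains are several times as wide.

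None of the 685 sites overlapped a peak in each of the 4 H3K9me3 libraries. A count of 0 allows a share of up to 0.438% by the rule of 3, an approximate one-sided 95% limit. The upper end of a two-sided interval would lie higher, so no test against the next shares is drawn from this limit. In the other 5 pairs 21 of 3151 did (0.666%), and 25 of 4768 domains did (0.524%). In 3 sites, named after their values were seen, peaks of 3 libraries overlapped. These were chr1:34488416-34489215, chr7:134757564-134758569 and chr10:66920065-66920651. At the first the nearest peak of H3K9me3 replicate 2 was 0.539 kb away, and at the second that of replicate 1 was 0.433 kb away. At the third replicate 1 had no peak within 456 kb.

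Tamoxifen-only sites lay a median of 93.8, 47.5, 26.5 and 44.2 kb from the nearest peak of H3K9me3 replicates 1 to 4, against 88.4, 46.5, 28.2 and 45.5 kb for the other 5 pairs. Within 10 kb of a peak were 8.03%, 15.9%, 25.8% and 17.2% of tamoxifen-only sites, against 9.17%, 16.4%, 25% and 16.4% of the other pairs and 7.75%, 15.2%, 24.3% and 16.0% of all merged regions. The order of the libraries follows the length of their lists, from 17030 peaks on the autosomes in replicate 1 to 41393 in replicate 3. Tamoxifen-only sites were nearer in 2 of 4 libraries and less near in the other 2. The difference averaged -0.00476 percentage points ± 0.991 (SD, n = 4 libraries), with a range of -1.14 to 0.851 and an exact permutation p of 1.0 (two-sided, sign flips), where 4 libraries allow no p below 0.13. The difference depended on the peaks used. It was -3.24 points with peaks of at least 500 bp, -3.50 with equal numbers of widest peaks, -2.26 with at least 50% cover and 1.32 with peaks up to 1 kb apart merged, with exact permutation p-values of 0.13 to 0.25. Against domains the difference was 1.21 points ± 0.628, higher in 4 of 4 libraries, with an exact permutation p of 0.13, the smallest possible. Every library is set against the same H3K27me3 regions. These tests thus speak of the spread among H3K9me3 maps and do not replicate the contrast between classes of regions.

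**Figure D5:**
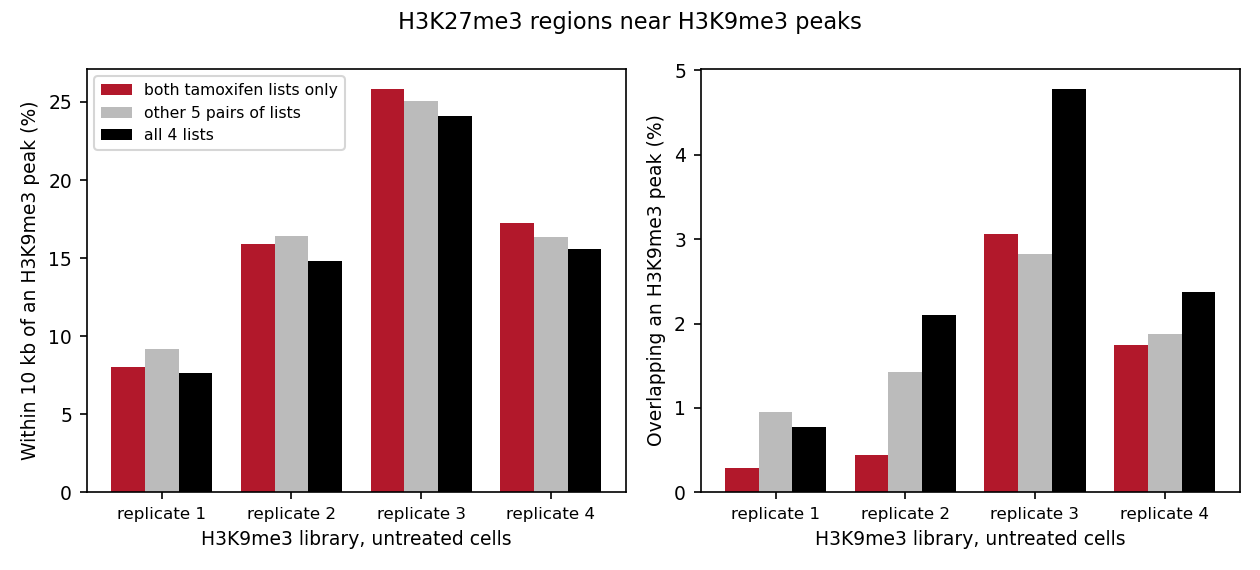
Share of H3K27me3 regions within 10 kb of an H3K9me3 peak (left, percent) and overlapping one (right, percent), for each of the 4 H3K9me3 libraries of untreated cells (x axis). Bars are tamoxifen-only regions (red, n = 685), regions of the other 5 pairs of lists (grey, n = 3151) and regions of all 4 lists (black, n = 4768). Within 10 kb the 3 classes differ by less than the libraries do, with 8.03% to 25.8% of tamoxifen-only regions.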

How the data were processed

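Per the labels, chromatin was sonicated, precipitated and sequenced. The authors deposited 1 peak list per library, holding positions on mm9 alone. Bowtie 0.12.7 and MACS2 (2.0.10 or 2.1.0) are listed in the submitters' processing notes. The peak caller's mode, threshold and control, which affect the number and width of peaks, are not given. Starts were read as counted from 0, as in BED, and are printed counting from 1. The 5 inputs were not analysed here.

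Tables were made with Python 3.11.15, pandas 2.3.3 and NumPy 2.4.6, intervals with SciPy 1.17.1 and plots with Matplotlib 3.10.9. A list held a region with at least 1 bp of peak. Distances run from edge to edge. Tests between libraries were exact permutation tests, two-sided. The code was tested on simulated peaks. No 2 lists shared more than 1 identical peak. Regions and alternatives were chosen with earlier results of these data known, and chromosome 8 was examined after its counts were seen. Named regions are the 10 with most bases under both tamoxifen lists, the 5 nearest to and 5 farthest from a region of all 4 lists, the 5 largest runs, with ties by shorter span, and overlaps with all 4 H3K9me3 lists, of which there were 0. Sequence and genes of mm9 were not used here.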

Additional observations from a re-analysis of the deposited data

How the results depend on the processing

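Merging peaks up to 1 kb apart gave 771 tamoxifen-only regions, at a median of 70.7 kb from a domain and with 17.9% within 10 kb. Peaks of at least 500 bp gave 396 regions, 55.3 kb, 23.0% within 10 kb and 15.4% with a neighbour within 100 kb. Requiring 50% cover by each holding list gave 267, 148 kb, 13.5% and 13.9%. Equal numbers of widest peaks (6917 per list) gave 131, 69.7 kb, 16.0% and 6.11%. These settings change which regions count as domains as well as which are tamoxifen-only. With regions of at least 3 lists as domains the median was 21.7 kb and 38.0% lay within 10 kb, since domains are then more numerous. Leaving out 1 library gave 878 to 11779 regions, 29.0 to 57.6 kb, 23.3% to 36.8% within 10 kb, 25.9% to 85.2% with a neighbour and 12.1% to 17.9% on chromosome 8. With a tamoxifen list left out, the regions are those of the other tamoxifen list, and any comparison is with pairs of the remaining lists. Without chromosome 8, chosen after seeing the data, 17.9% had a neighbour. Adding the sex chromosomes moved none of the counts, medians and shares out of its interval or past 1.5 times.

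The difference in nearness to H3K9me3 between tamoxifen-only regions and other pairs, at -0.00476 points, was 1.32 when peaks up to 1 kb apart were merged, 0.0378 without tamoxifen replicate 1, 0.374 without H3K9me3 replicate 1 and 0.169 without H3K9me3 replicate 2. It was -3.24 with peaks of at least 500 bp, -2.26 with 50% cover and -3.50 with equal numbers of widest peaks. Leaving out a library gave -1.85 to 0.374, and the cause was not tested. The single-list difference kept its sign in every setting run, at -7.28 to -1.71 points. With a replicate block by MACS2 version it was -4.36 (exact permutation p = 0.5, the smallest possible for 2 pairs). Each H3K27me3 group has 1 title without a number and 1 numbered title, which gives the same pairs as the version. Depth is unknown, which limits every statement on absent peaks.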
